A study of Rattus norvegicus with 7 samples.

Results

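CC chemokines are small secreted proteins with adjacent cysteines near the amino end, and they draw leukocytes toward a source by binding G protein-coupled receptors. Of the 6 genes listed for the group (Ccl2, Ccl3, Ccl4, Ccl5, Ccl7 and Ccl20), 5 were measured, by 6 of the 8740 probe sets used. The other is Ccl7, to which no probe set was matched, and it is not analysed here. The genes were chosen on their signals over these same arrays, with earlier results known. All values of the 5 genes below are therefore descriptions, with no test.

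The arrays carried RNA from primary hippocampal cultures of Wistar rats, labelled as 17 days old without a statement of whether before or after birth. Astrocytes received 1, 10 or 100 µg/ml of grape seed extract, a plant preparation rich in polyphenols, for 24 h, beside untreated astrocytes. Neurons received 1 or 10 µg/ml for the same time, beside untreated neurons. The labels give both cultures the same DMEM medium with N1 supplement, glutamine and antibiotics, and they do not give the number of animals. Each of the 7 combinations was measured on 1 Affymetrix array, so no dose has an error of its own and the number of arrays limits every statement. A signal is the authors' linear intensity for a probe set, scaled alike on every array. The floor was set at 17.9, the lowest quartile bound over all arrays, and dimmer signals were given that value ahead of the log2 step. Where 1 side of a fold lay under the floor, the fold is written as at least that size. Shares over all probe sets rest on those above a filter, a mean log2 signal in the culture over that of 79.9, the median signal. All 5 genes passed it in astrocytes and 4 in neurons, where Ccl5 did not.

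In the brain, activated astrocytes and microglia are known sources of these proteins, whose genes are typically switched on through NF-kB after inflammatory signals. Ccl2 attracts monocytes through the receptor Ccr2. Ccl3, Ccl4 and Ccl5 attract monocytes and T cells, and Ccl20 attracts cells that carry Ccr6. In the RefSeq gene order of the rat assembly GRCr8, Ccl2 lies beside Ccl7 and Ccl3 beside Ccl4, all on chromosome 10. Ccl5 is also on chromosome 10 and Ccl20 on chromosome 9.

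Of the 5 measured genes, 1 had a promoter in the RefSeq sequence table, Ccl20. It is shown because Ccl20 had the largest change of the group at 100 µg/ml and because NF-kB sites are background knowledge for these genes. The window is chr9:91836909-91837208 on the plus strand of GRCr8, with the single match to the NF-kB consensus in capitals.
Ccl20 promoter: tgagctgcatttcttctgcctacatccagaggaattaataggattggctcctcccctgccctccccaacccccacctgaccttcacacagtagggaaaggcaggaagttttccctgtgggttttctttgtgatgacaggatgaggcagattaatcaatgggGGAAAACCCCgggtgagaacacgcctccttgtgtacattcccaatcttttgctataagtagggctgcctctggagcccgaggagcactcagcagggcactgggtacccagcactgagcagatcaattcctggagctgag
The match covers bases 162 to 171 of the window, on the minus strand. Both strands were searched, and 7.51% of the 33469 rat promoter windows held such a match. No match was found to TGANTCA (AP-1, in 7.33% of windows), the core of the interferon-stimulated response element (in 3.92%) or TATAAA (in 14.2%). These matches describe letters in the window and were not set against binding.

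The first question was what the extract did to these genes in astrocytes. At 10 µg/ml all 5 were at least 2-fold above the untreated array, from 3.08 log2 for Ccl4 to 6.27 log2 for Ccl20. For comparison, 4.30% of the 4252 probe sets above the signal filter were at least 2-fold higher and 2.21% lower by as much. Only Ccl2 was that far above untreated at 1 µg/ml, 1 of 5, against 1.03% of probe sets (0.964% lower). At 100 µg/ml all 5 were higher, against 6.63% of probe sets (19.0% lower). Because these contrasts are among the values behind the choice of genes, nothing is read from the counts.

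**Figure D1:**
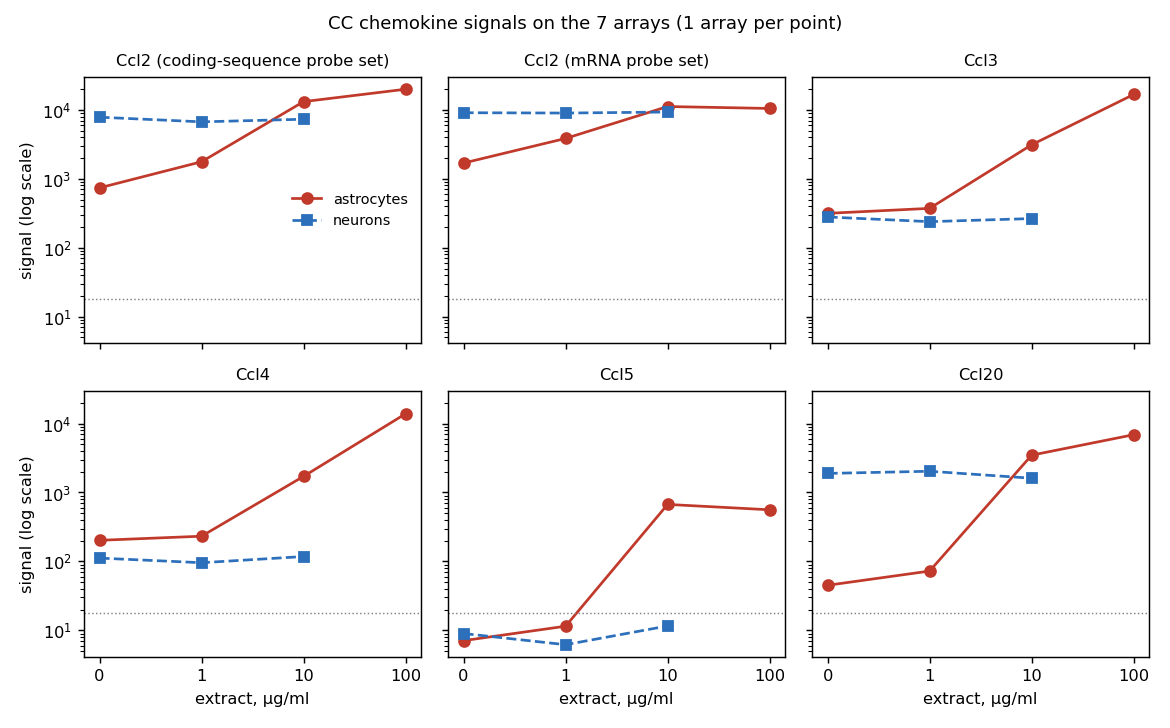
Signal on a log scale against the dose of extract in µg/ml, for each CC chemokine probe set, in astrocytes (red circles, solid) and neurons (blue squares, dashed). Each point is 1 array, and the dotted line is the floor of 17.9. Astrocyte signals are high at 10 and 100 µg/ml, while the 3 neuron signals of Ccl2 and Ccl20 lie close together, above those of astrocytes at 0 and 1 µg/ml.

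Ccl2, the monocyte attractant, was measured by a pair of probe sets, both designed on the same sequence record. Probe sets of Ccl2 and Ccl20 carry the maker's mark for designs that may also match related transcripts. The one named for the coding sequence, which is the brighter on average, gave 739, 1768, 13157 and 19911 in astrocytes over the doses of 0, 1, 10 and 100 µg/ml. The one named for the mRNA had 1692, 3850, 11173 and 10477. Both were more than 2-fold above untreated astrocytes already at 1 µg/ml, by 1.26 and 1.19 log2. They parted at higher doses. The change at 10 µg/ml was 4.15 log2 (17.8-fold) by the coding-sequence probe set and 2.72 log2 (6.61-fold) by the mRNA probe set.

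The median probe set was lower at 100 µg/ml by 0.26 log2 on the deposited scale (a change of -0.26), against -0.09 after quantile normalization. Values for 100 µg/ml below are therefore stated after taking off that -0.26. For Ccl2 they were 5.01 log2 by the coding-sequence probe set and 2.89 by the mRNA probe set. Against 10 µg/ml, where the median probe set changed by -0.18, the relative change was 0.77 by the coding-sequence probe set and 0.08 by the mRNA probe set. As deposited, these changes were 0.60 and -0.09. Which of the 2 probe sets is nearer to the true change at 100 µg/ml cannot be told from these values, and saturation of either could not be checked.

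Ccl3 and Ccl4, the macrophage inflammatory proteins encoded side by side, had nearly the same profile. Over those doses Ccl3 gave 315, 373, 3114 and 16708, and Ccl4 202, 232, 1713 and 13859. Both were within 1.2-fold of untreated astrocytes at 1 µg/ml. With 10 µg/ml Ccl3 was 9.87-fold and Ccl4 8.47-fold higher. Both were higher again at 100 than at 10 µg/ml, by more than any other member, with 2.60 log2 for Ccl3 and 3.19 for Ccl4 relative to the median probe set. Relative to it, the change from untreated astrocytes at 100 µg/ml was 5.99 log2 for Ccl3 and 6.36 for Ccl4. The root-mean-square difference between their log2 changes over the 3 treated astrocyte arrays was 0.25, the smallest among the 5 genes.

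Ccl5, known as RANTES, was not higher at 100 than at 10 µg/ml. Its signals were 7.10, 11.5, 671 and 561 in astrocytes at 0, 1, 10 and 100 µg/ml. The untreated array and the 1 µg/ml array lay under the floor, so the change was at least 37.5-fold at 10 µg/ml. At 100 µg/ml it was at least 5.23 log2 relative to the median probe set. Ccl5 passed the signal filter through the arrays at 10 and 100 µg/ml alone. Relative to the median probe set the signal at 100 differed from that at 10 µg/ml by -0.08 log2.

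Ccl20 had the largest change of the 5 genes at 100 µg/ml. Its signals were 45.1, 72.5, 3475 and 6884 at 0, 1, 10 and 100 µg/ml. At 1 µg/ml the change was 0.68 log2, short of 2-fold. With 10 µg/ml it was 77.0-fold higher, rank 1 by log2 change among the 4252 probe sets in the filter, with Ccl5 at rank 2 as a lower bound. Like Ccl5, Ccl20 was under the filter value without extract and at 1 µg/ml, and passed the filter through its signals at 10 and 100 µg/ml. At 100 µg/ml the relative change was 7.51 log2, at rank 5. From 10 to 100 µg/ml the signal was 1.98-fold higher as deposited and 2.24-fold relative to the median probe set.

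Set against each other, 2 of the 5 genes were at least 2-fold higher at 100 than at 10 µg/ml as deposited (Ccl3 and Ccl4), while 5.10% of probe sets were higher and 16.0% lower. Ccl20 made it 3 of 5 relative to the median probe set.

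**Figure D2:**
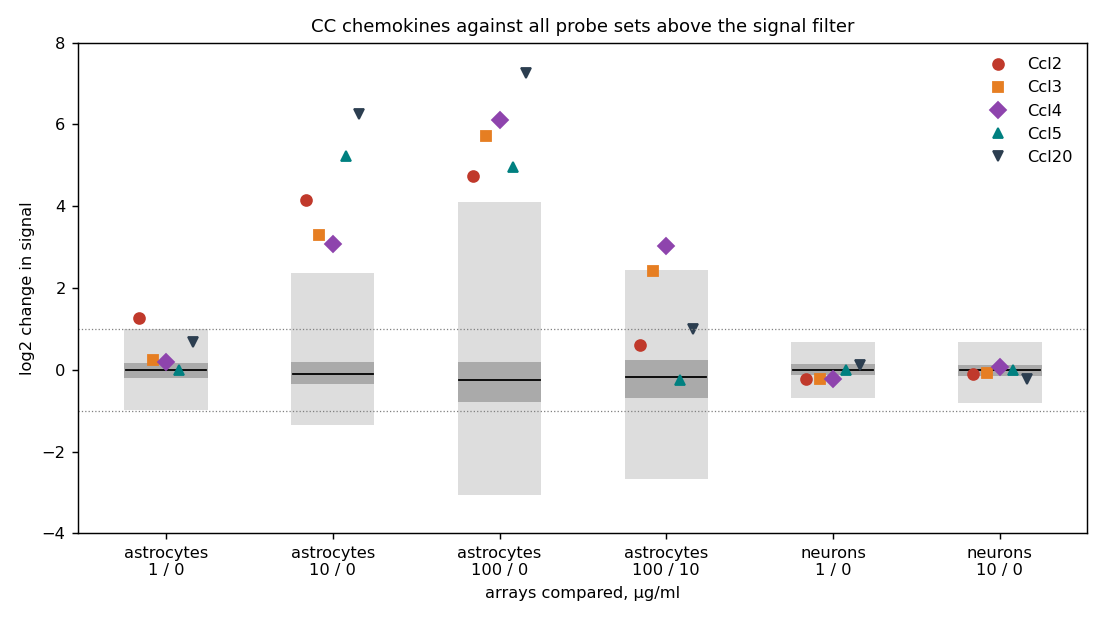
Log2 change in signal, as deposited, for the brightest probe set of each CC chemokine in the 6 comparisons of single arrays. Light bars span the percentiles 1 to 99 and dark bars 25 to 75 of all probe sets above the filter, with a line at the median, and dotted lines mark 2-fold. All 5 genes lie above percentile 99 in astrocytes at 10 and 100 µg/ml, but they were chosen on these arrays. In neurons all lie within percentiles 1 to 99. Ccl5 is at 0 there through the floor alone, and it did not pass the filter in neurons.

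In neurons none of the 5 genes was 2-fold apart from the untreated array at either dose. Of 4453 probe sets, 0.561% were at 1 µg/ml and 0.764% at 10 µg/ml. Signals of Ccl2 by its coding-sequence probe set were 7823, 6699 and 7310 at 0, 1 and 10 µg/ml, and by its mRNA probe set 9082, 8986 and 9294. Those of Ccl20 were 1890, 2032 and 1610. For both genes every neuron array was above the astrocyte arrays at 0 and 1 µg/ml, and the neuron arrays lay close to each other. Ccl3 had 279, 239 and 265, and Ccl4 had 112, 95.8 and 118. Ccl5 had 9.0, 6.2 and 11.6, under the floor on every neuron array, so no fold is given for it.

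The change at 10 µg/ml in astrocytes exceeded that in neurons by 6.50 log2 for Ccl20, 4.25 for Ccl2 (2.69 by its mRNA probe set), 3.38 for Ccl3 and 3.01 for Ccl4. No difference is given for Ccl5, whose neuron signals lay under the floor. These differences rest on single arrays and were not tested.

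The next question was how the cultures compared at a shared dose. Without extract, astrocytes had 739 and neurons 7823 for Ccl2, a difference of -3.40 log2 (-2.42 by the mRNA probe set). For Ccl20, astrocytes had 45.1 and neurons 1890, a difference of -5.39 log2. These were the 2 of 5 genes at least 2-fold lower in untreated astrocytes, against 12.7% of 4709 probe sets (9.05% were higher). Ccl3 and Ccl4 differed by 0.18 and 0.86 log2.

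At 1 µg/ml the differences were -1.92 for Ccl2 (-1.22 by the mRNA probe set), -4.81 for Ccl20, 0.64 for Ccl3 and 1.28 for Ccl4. At 10 µg/ml the order had turned. Ccl20 had 3475 in astrocytes and 1610 in neurons (1.11 log2), and Ccl2 had 13157 in astrocytes and 7310 in neurons (0.85 log2, or 0.27 by the mRNA probe set). Ccl3 was higher in astrocytes by 3.55, Ccl4 by 3.86 and Ccl5 by at least 5.23 log2. In all, 4 of 5 were at least 2-fold higher at 10 µg/ml, against 11.8% of probe sets (14.7% were lower).

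**Figure D3:**
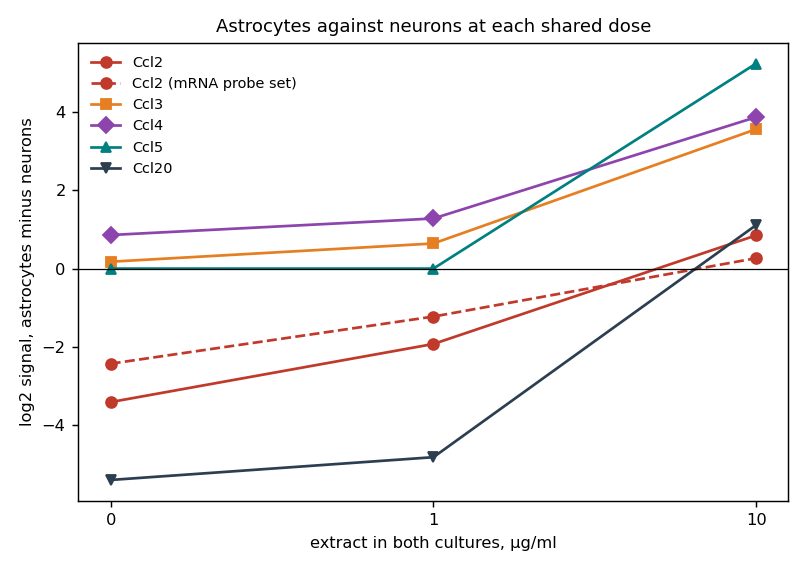
Difference in log2 signal, astrocytes minus neurons, at each dose given to both cultures (µg/ml). Each point compares 1 astrocyte array with 1 neuron array. Ccl2 and Ccl20 lie below 0 at 0 and 1 µg/ml and above 0 at 10 µg/ml, while Ccl3 and Ccl4 lie above 0 throughout. The points of Ccl5 at 0 and 1 µg/ml have both signals under the floor.

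The highest signal of every member was in treated astrocytes, at 100 µg/ml for Ccl2 (at 10 µg/ml by its mRNA probe set), Ccl3, Ccl4 and Ccl20 and at 10 µg/ml for Ccl5. The lowest was in untreated astrocytes for Ccl2 and Ccl20 and in the neuron array at 1 µg/ml for Ccl3 and Ccl4. Ccl5 was under the floor on 5 arrays, which have no order. Neuron arrays differed among themselves by at most 1.26-fold for the 4 genes above the floor. For Ccl2 and Ccl20 the neuron arrays lay between the astrocyte arrays at 1 and 10 µg/ml.

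Receptors were measured sparsely. Of 16 listed CC chemokine receptors and atypical receptors, 5 had a probe set, and 4 of these lay under the filter value of 79.9 on every array. Ccr1, a receptor for Ccl3 and Ccl5, had 20.5 to 34.3 in astrocytes and 20.1 to 51.1 in neurons. Ccr2, the receptor for Ccl2, had 6.70 to 23.5 in astrocytes and 2.10 to 22.9 in neurons. The other dim genes were Ccr3 and Ackr2, a scavenging receptor for CC chemokines. Ccr6 is not analysed here.

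Ackr3, a scavenger of Cxcl12 and so not a receptor for these ligands, was above the filter. It had 169, 156, 188 and 140 in astrocytes at 0, 1, 10 and 100 µg/ml, and 66.8, 95.2 and 85.3 in neurons at 0, 1 and 10 µg/ml. No astrocyte array overlapped the neuron arrays. In a limma fit over the shared doses, Ackr3 was higher in astrocytes by 1.06 ± 0.19 log2 (SE, 3 arrays each, adjusted p = 0.00299). This fit called 44.3% of the 4709 probe sets, 910 upward and 1176 downward. Its replicates are arrays at different doses, so its error holds the dose effect, and nothing says that the arrays came from separate cultures.

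Of 13 other CC chemokines listed, Ccl11, an eosinophil attractant next to Ccl7 on chromosome 10, had a probe set. Its signal was 2.40 to 10.0 in astrocytes and 0.80 to 14.8 in neurons, under the floor on all 7 arrays.

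Of 15 listed CXC and other chemokines, 9 were measured and 6 passed the filter in astrocytes. Of the 6, 4 were past 2-fold upward at 10 µg/ml and 0 downward, against 4.30% and 2.21% of probe sets. The list median was 2.22 log2, and that of all probe sets -0.10. The 4 were Cxcl10, an interferon-induced T cell attractant (4.74), Cxcl2, a neutrophil attractant (3.92), and Cx3cl1 (2.81) and Cxcl13 (1.63), both named after their values were seen. Cxcl13 was under the filter value without extract and at 100 µg/ml. It passed the filter through the array at 10 µg/ml, so its part in this count is not read. At 100 µg/ml 3 of the 6 were past 2-fold upward and 0 downward, against 6.63% and 19.0% of probe sets. The list median at that dose was 0.63 log2 as deposited. Of the 3, Cxcl2 stood at 7.06 relative to the median probe set and Cxcl10 at 3.68. Cx3cl1 stood at 1.23 as deposited, with its probe sets from 0.24 to 1.68. Cxcl6, under the filter in astrocytes, stood at 1.87. From 10 to 100 µg/ml Cxcl2 was higher by 2.88 log2 as deposited, whereas Cxcl10 changed by -1.32, Cx3cl1 by -1.59 and Cxcl13 by -1.59. The deposited changes of Ccl3 and Ccl4 in this step were 2.42 and 3.02.

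Genes that are known to induce chemokines were listed too. Of 13 measured, 9 passed the filter in astrocytes, and 6 were at least 2-fold higher at both 10 and 100 µg/ml (medians of 1.45 and 2.59 log2, against -0.10 and -0.26 over all). The shares over all probe sets were 4.30% and 6.63% (2.21% and 19.0% lower). Il6, Tnf and Tnfrsf1b were under the filter value without extract and at 1 µg/ml (Tnf also at 10 µg/ml) and passed through the arrays where they were high, so nothing is read from this count. Il6, the cytokine interleukin 6, stood at 4.5 at 10 µg/ml and at 10.09 relative to the median probe set at 100 µg/ml, while its probe sets ranged from 6.98 to 9.83 as deposited. Il1a, an interleukin, stood at 4.02 and 6.54 (probe sets from 4.77 to 7.46 at 100 µg/ml as deposited), and Tnf, tumour necrosis factor, at 1.11 and 5.71. Tlr4, the endotoxin receptor, had 187, 117, 163 and 11.0 in astrocytes at 0, 1, 10 and 100 µg/ml, the last under the floor. With Tnfrsf1a (-1.65 at 10 µg/ml and -1.10 at 100 as deposited), it made up the 1 gene at 10 and the 2 at 100 µg/ml with a change past 2-fold downward. Both were named after their values were seen, and another probe set of Tlr4 stood at 0.00.

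Of 8 NF-kB and interferon regulatory factor genes measured, 6 passed the filter. At 10 µg/ml 4 were at least 2-fold higher, Nfkbia, the NF-kB inhibitor (2.60), Irf1 (2.39), Nfkb1 (1.36) and, named after its values were seen, Irf7 (1.20). At 100 µg/ml as deposited Nfkbia alone was (3.82 relative to the median probe set, against 1.22 for Irf1 and 1.19 for Nfkb1). The list medians were 1.28 and 0.47 log2 as deposited. Of 10 AP-1 and C/EBP genes measured, 7 passed the filter. Of the 7, 4 were at least 2-fold higher at 10 and 6 at 100 µg/ml, with medians of 1.5 and 4.38 log2 as deposited. For both lists, the share over all probe sets was 4.30% higher at 10 and 6.63% at 100 µg/ml (2.21% and 19.0% lower). Fos, an AP-1 subunit, stood at 0.31 at 10 µg/ml and at 5.36 relative to the median probe set at 100, and Junb at 1.98 and 4.96. Fosl2, under the filter, stood at 5.74 at 100 µg/ml, but its probe sets ranged from -0.09 to 5.48 as deposited.

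Proteins that process, hold or limit chemokines were less uniform. Of 13 measured proteases and surface proteoglycans, 10 passed the filter in astrocytes. At 100 µg/ml 3 were at least 2-fold higher and 1 lower, against 6.63% and 19.0% of probe sets. Mmp3 was likewise under the filter value without extract and at 1 µg/ml. Mmp9 and Mmp3, matrix proteases, stood at 4.61 and 4.29 relative to the median probe set, and Mmp12, under the filter, at 3.98. Higher by 2.17 was Sdc4, and lower was Sdc2 at -3.01, both heparan sulfate carriers named after their values were seen. Of 3 regulators of mRNA decay measured, Zfp36, which promotes decay of cytokine mRNAs, stood at 3.18, Zfp36l1 at 1.45 and Hnrnpd at 0.25.

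The genes nearest in profile were sought among 2688 others, by the root-mean-square difference in log2 change over the 3 treated astrocyte arrays. With the floor, the nearest to Ccl3 and to Ccl4 was Nos2, the inducible nitric oxide synthase, at 0.29 and 0.47. Its astrocyte signals, from no extract to the highest dose, were 11.6, 28.3, 172 and 784, with the untreated one under the floor, so its changes are lower bounds. Without a floor Nos2 stood at 0.72 from Ccl3 and 0.78 from Ccl4, behind Olr1, Il1a and Cxcl2 in both cases. Olr1, a scavenger receptor, and Il1a followed for Ccl3 (0.65 and 0.69), and Olr1 and Cxcl2 for Ccl4 (0.62 and 0.63). Probe sets of Nos2 ranged from 0.00 to 5.45 log2 at 100 µg/ml as deposited, and those of Olr1 from 0.00 to 6.58. Nos2 and Olr1 passed the filter through the arrays at 10 and 100 µg/ml alone.

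Nearest to Ccl2, by its coding-sequence probe set, were Rsad2, an antiviral protein, at 0.54, Fosl1, an AP-1 subunit, at 0.73 and Nos2 at 0.74. None were sought for its mRNA probe set, which changed less at 10 and 100 µg/ml (2.72 and 2.63 log2 as deposited). Ccl5 and Ccl20 had no neighbour as close. For Ccl5 they were Cxcl10 at 1.03, Neurl3 at 1.14 and Olr1 at 1.17, and for Ccl20 Olr1 at 1.37, Cxcl2 at 1.41 and Il1a at 1.43. The neighbours of Ccl5, itself under the floor without extract, depended on the floor. Without it they were Il1a at 1.48, Olr1 at 1.49 and Cxcl2 at 1.58. For Ccl20, Ptgs2, a prostaglandin synthase under the floor without extract, then came first at 1.37, level with Olr1. Between members, Ccl20 differed from the others by 1.5 to 1.98. Ccl2, by its coding-sequence probe set, differed from Ccl3 by 0.95. The differences describe these 3 arrays, which share the untreated array.

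**Figure D4:**
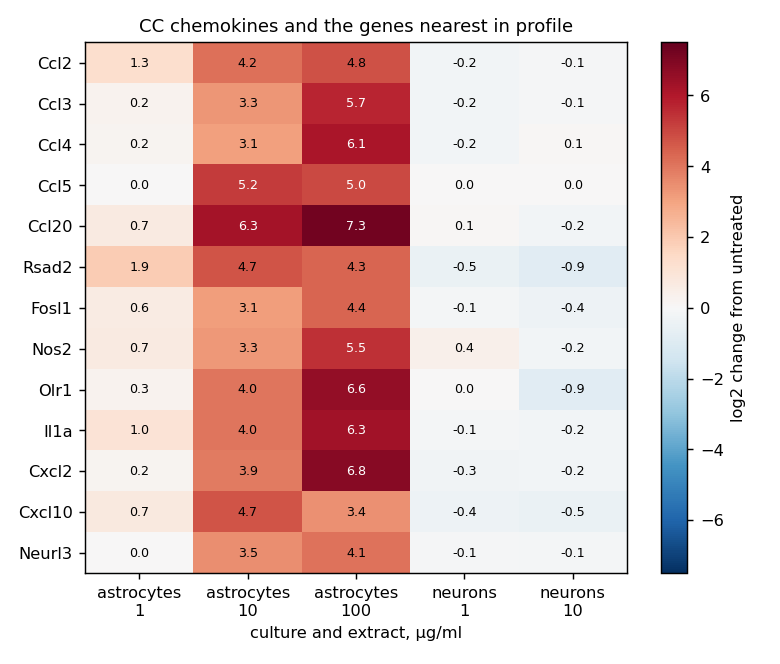
Log2 change from the untreated array of the same culture, as deposited, for the 5 CC chemokines and the 8 genes nearest to them in profile (rows), by culture and dose in µg/ml (columns). Red is higher and blue lower, and numbers are rounded to 1 decimal. All 13 genes are higher in astrocytes at 10 and 100 µg/ml. This follows from the choice, of the members on these arrays and of the 8 by their astrocyte changes. The changes in neurons lie between -0.9 and 0.4.

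Markers of other cells were read on the same arrays. The microglia and macrophage list had 13 of 18 markers measured. All 9 that passed the filter in either culture were higher in astrocytes than in neurons over the shared doses (limma, adjusted p below 0.05). The fit called 44.3% of all probe sets either way, and 8 of these 9 markers passed the filter in neurons. Ptpn6 was higher by 2.78 log2 (adjusted p = 5.98e-06). The summed signal of all 13 measured markers without the brightest was 7719, 8583, 9271 and 4267 in astrocytes at 0, 1, 10 and 100 µg/ml. In neurons it was 1346 to 1746. The brightest, Lyz2, had 10258 to 15616 in astrocytes and 9276 to 12326 in neurons. Itgam and Csf1r, both defining markers, lay at 7.6 to 29.0 in astrocytes and 1.1 to 29.0 in neurons, near or under the floor. Lyz2, Itgam, Csf1r, Fcgr2b, Cd53 and, further on, Cd3d and the astrocyte markers in the higher direction were named after their values were seen.

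At 100 µg/ml, where Ccl3 and Ccl4 were highest, the count of these 9 markers past 2-fold was 3 downward and 1 upward. Over all probe sets 19.0% were lower and 6.63% higher by as much. Relative to the median probe set Ptpn6 stood at -3.97, Dock8 at -3.54, Aif1 at -2.45 and Fcgr2b at 2.49. Probe sets of Dock8 ranged from -3.81 to -0.88 and those of Aif1 from -2.71 to 0.35 as deposited. At 10 µg/ml, 2 of the 9 were at least 2-fold higher (Fcgr2b at 1.32 and Cd53 at 1.22) and none lower, against 4.30% and 2.21% of probe sets. The part of these cells in the chemokine signals was not tested. In bulk RNA of a culture, fewer cells of a type and less RNA per cell cannot be told apart.

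**Figure D5:**
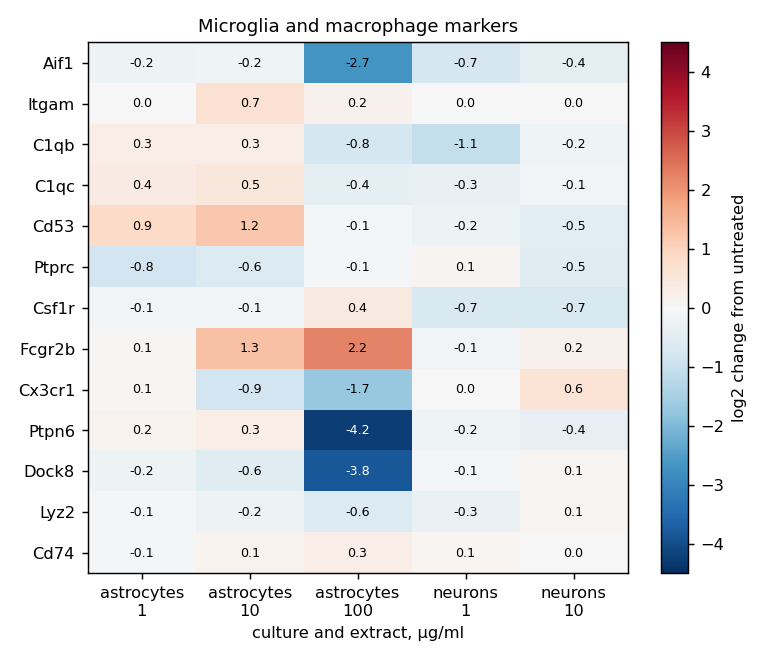
Log2 change from the untreated array of the same culture, as deposited, for the 13 microglia and macrophage markers measured (rows), by culture and dose in µg/ml (columns). Red is higher and blue lower. Ptpn6, Dock8 and Aif1 are lowest in astrocytes at 100 µg/ml, and Fcgr2b is highest there.

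The labels of the cultures were also set against their markers. All 6 neuron markers that passed the filter in either culture, of 7 measured, were lower in astrocytes (limma). Nefl stood at -5.88 log2 or lower, because its astrocyte signals of 13.9 and 10.5 at 0 and 1 µg/ml lay under the floor. The fit called 44.3% of all probe sets either way. Only 3 of the 6 also passed the filter in astrocytes. Nefl and the others entered through the neuron arrays, where they were high, so nothing is read from this count or from their calls. Of 9 astrocyte markers tested, 5 were higher in astrocytes, S100b (2.01), Agt (1.57), Sparcl1 (0.78), Aldh1l1 (0.75) and Apoe (0.36). The 2 lower ones were Slc1a3, a glutamate transporter, at -1.28 (adjusted p = 7.22e-06) and Aqp4, a water channel, at -0.88 (0.000863). The part of glial cells in the Ccl2 and Ccl20 signals of the neuron cultures was not tested. Of 8 fibroblast and meningeal markers, 7 were higher in astrocytes and 1 lower, and of 2 endothelial markers tested 1, Kdr, was lower. In neurons 7 astrocyte markers, without Agt, and 7 fibroblast and meningeal markers passed the filter. Kdr passed it in neurons alone. The direction of a marker that passed in 1 culture alone was set by the filter and is not read. Of 11 T cell and natural killer cell markers, 9 lay under the filter value on every array, and Cd3d was under the floor throughout. Cd4 had 98.0, 127, 103 and 51.6 in astrocytes at 0, 1, 10 and 100 µg/ml, and 49.6, 22.5 and 50.7 in neurons at 0, 1 and 10 µg/ml. It was called higher in astrocytes (limma), but it passed the filter there alone, so this call is not read.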

How the data were processed

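Total RNA was measured on 7 Affymetrix arrays, 1 for each combination of culture and dose. The values are signal intensities as deposited by the authors, on a linear scale. The submitters' processing notes name GCOS, of which no version or setting is recorded there. Per the labels, biotin-labelled cRNA was made from 100 ng of RNA by the two-cycle procedure. Every array had a trimmed mean of 500.731 to 500.874, so the scale was kept.

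Of 8799 probe sets, 59 controls were left out. A single symbol was given for 7006, several for 308 and none for 1426, and the gene IDs of 6985 were found in the RefSeq table. A gene is represented by its brightest probe set on average. A floor at the 25th percentile (17.9) preceded the log2 step. Background shares and list counts used probe sets whose mean log2 signal in that cell type was above the median of all signals (79.9): 4252 in astrocytes, 4453 in neurons, and 4709 in either for comparisons of cultures. Changes between single arrays are log2 differences without a test, counted at 2-fold.

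Astrocytes and neurons at shared doses were compared with limma 3.58.1 under R 4.3.3, as a two-sided moderated test with an intensity trend and Benjamini-Hochberg adjustment over 4709 probe sets (threshold 0.05). The calculation was tested on simulated data with the same noise for every probe set and no dose effect. It therefore does not show how the fit behaves where the doses differ.

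The members and all lists (8 of genes, 6 of markers) were chosen with earlier results of these data known. Genes were named by rule: all members, receptors and other CC chemokines, the 3 largest changes of each other list at 100 µg/ml, and the 3 nearest profiles to each member. Others are said to be named after their values were seen. Alternatives were quantile normalization, no floor, other filters, the mean over a gene's probe sets, dose as a block, astrocytes at 100 µg/ml added, and leaving out each array. Centring on the median change, and nearest profiles without a floor, were chosen after seeing the data. Figures used matplotlib 3.10.9.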

Additional observations from a re-analysis of the deposited data

Results flagged for a closer look

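Among the 53 probe sets checked (members, genes named by rule from the lists and nearest-profile genes), 13 were on one side of the untreated array at all 3 doses in astrocytes and on the other side at both doses in neurons. The difference was not tested, the doses of a culture share 1 untreated array, and the neuron changes were mostly small. Of the CC chemokines these were Ccl2, whose change at 10 µg/ml was 4.15 log2 in astrocytes and -0.10 in neurons, a difference of 4.25, and Ccl3, with 3.30 and -0.08, a difference of 3.38. The mRNA probe set of Ccl2 did not meet the rule, since its neuron changes were -0.02 and 0.03. The 53 were chosen partly on their astrocyte changes, and the share of all probe sets meeting the rule was not counted. Nothing is therefore read from the count of 13.

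The same difference, astrocyte minus neuron change at 10 µg/ml, was 5.55 log2 for Rsad2, 5.23 for Cxcl10, 4.22 for Il1a, 4.14 for Cxcl2, 3.59 for Neurl3, 3.48 for Fosl1, 3.12 for Mmp3 and 2.10 for Junb. It was -1.92 for Dcn, -0.96 for Vwf and -0.92 for Col1a1, which were lower in astrocytes and higher in neurons. No group held 4 or more arrays of 1 dose, so no array could be set against others of its group.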

How the results depend on the processing

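The counts of CC chemokines at least 2-fold apart (1, 5 and 5 of 5 in astrocytes at 1, 10 and 100 µg/ml, 2 at 100 against 10, and 0 in neurons) were the same under quantile normalization, without a floor and with the mean over probe sets. Centring on the median change made it 3 at 100 against 10 µg/ml and left the others. No change of a member past 2-fold turned its sign. Of 30 member changes, 27 without a floor and 30 after quantile normalization or centring moved by less than 1.5-fold, and 3 of 6 did by the other Ccl2 probe set (2.72, 2.63 and -0.09 were those that moved). Without a floor Ccl5 stood at 0.70, 6.56 and 6.30 at 1, 10 and 100 µg/ml.

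Counts over all probe sets depended on the filter. In astrocytes they were 85, 277 and 1088 at 1, 10 and 100 µg/ml and 899 at 100 against 10, in neurons 25 and 34. With no filter they were 466, 728, 1805, 1463, 355 and 357. With a filter at the 75th percentile, where fewer were tested, they were 22, 115, 416, 324, 0 and 1. With 1 value per gene they were 30, 145, 602, 479, 9 and 14. Higher calls made up 25.9% at 100 µg/ml, against 40.4% after quantile normalization and 41.1% after centring, and 24.1% at 100 against 10, against 38.7% and 35.5%.

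The limma fit called 2086 probe sets, 1286 with the stricter filter, 1220 with 1 value per gene, 1564 to 2251 leaving out each array, 1871 with dose as a block and 1423 with astrocytes at 100 µg/ml added. Ackr3 was called in all 6 fits that left out an array (adjusted p = 0.00679 to 0.0128, limma). With astrocytes at 100 µg/ml added, 6 of the 9 microglia calls were made. Ptpn6 had an adjusted p of 0.27 there.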
